A study of Arabidopsis thaliana with 16 samples.

Results

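The 10 genes described here are protein-coding genes for leucine-rich repeat receptor kinases that lie in tandem on chromosome 1 of *Arabidopsis thaliana*, from AT1G51800 to AT1G51890. They are AT1G51800 (*IOS1*), AT1G51805, AT1G51810, AT1G51820, AT1G51830, AT1G51850, AT1G51860, AT1G51870, AT1G51880 (*RHS6*) and AT1G51890, 10 of the 27827 genes measured. The group was chosen by locus around AT1G51860, which was picked because it was among the largest rises in the mutants. The values of the mutants against the control therefore chose it. For these genes they are given as a description, without p-values, and where they are counted against a threshold the count describes the choice and tests nothing. In the RefSeq order of genes the stretch holds 14 annotated genes, these 10 and 4 others, of which AT1G51840 is also counted below as a receptor kinase of the same subfamily.

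Leaf transcripts were profiled on 16 Affymetrix AraGene arrays, with 4 biological replicates in each of 4 groups. All plants were Col-0 or derived from it. The sample descriptions give 6 weeks of growth in short days, with 8 h of light and 16 h of darkness. The methods of the study instead state a later harvest, at the same age for watered and drought plants, and a slightly longer light period. One group of wild type was watered (control) and one was left without water for 10 days (drought), and amiNaa10 and amiNaa15 were watered. The amiNaa10 and amiNaa15 plants carried an artificial microRNA against *NAA10* or *NAA15*, driven by the CaMV35S promoter, which is active in most tissues. *NAA10* and *NAA15* encode the catalytic and the auxiliary subunit of NatA, the complex that acetylates the N termini of many proteins as they leave the ribosome. Each mutant is a transgenic knock-down line and not a null allele.

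Receptor kinases of this family span the plasma membrane. The outer part carries leucine-rich repeats and, in this subfamily (LRR-I), a malectin-like domain, and the inner part is a kinase. In leaves the best known receptor kinases of the wider leucine-rich repeat family bind microbial or endogenous peptides, act through co-receptors such as *BAK1*, and switch on a burst of reactive oxygen, MAP kinase cascades and defence genes. *IOS1* is named for impaired oomycete susceptibility and acts with pattern receptor complexes, whereas *RHS6* is named as a root hair specific gene. The other 8 genes are given by locus.

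Values are log2 signals, so a difference of 1 is a doubling, and they compare groups within a gene and not genes with each other. The genes are closely related and the sources used here do not state how probes shared between such genes were treated, so signal of one may include some of another. Of the 10 genes, 7 had a mean signal above the lowest 25% of all genes, which ended at 3.25, and AT1G51810, AT1G51830 and *RHS6* did not. *RHS6* was below a signal of 3, a line drawn here for signals near background, on 15 of 16 arrays. AT1G51830 was below it on 7 arrays, AT1G51810 on 6, AT1G51850 on 5, and *IOS1* and AT1G51860 on 1 each. In whole leaves, fewer cells of a type and less RNA per cell cannot be told apart.

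The targeted genes went against some labels. *NAA10* was 6.58 to 6.88 in the control and 4.92 to 5.28 in amiNaa10, a fall of 1.58 (log2; limma, adjusted p = 0.0137). On the arrays labelled amiNaa15 *NAA10* was 5.16, 5.06, 6.89 and 6.86 for replicates 1 to 4, and *NAA15* was 9.68, 9.54, 7.97 and 7.80, against means of 9.10 ± 0.08 (SD, n = 4) in the control and 9.60 ± 0.18 in amiNaa10. Replicates 1 and 2 under that label thus had low *NAA10* and undiminished *NAA15*, and replicates 3 and 4 the reverse. They are called the arrays labelled amiNaa15 throughout, and results are given with and without each pair. Arrays of a group correlated at 0.971 to 0.991 over all genes. The mean per array of 5 mesophyll markers was 11.7 to 11.9 in the control and that of 5 root and root hair markers was 2.35 to 2.73 over the 4 groups, levels of different probes that are given side by side and not compared.

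AT1G51860 had the largest difference of the 10 genes. Its log2 signals were 3.16, 3.99, 3.78 and 4.59 in the control and 6.38, 7.88, 6.55 and 6.57 in amiNaa10. They were 7.48, 6.92, 5.18 and 6.04 on the arrays labelled amiNaa15, and 2.78, 4.28, 4.19 and 3.00 in drought. Every array of either mutant label was above every control array, with the labelled amiNaa15 replicate 3 the lowest of them, and drought overlapped the control. The group means were 6.84 ± 0.70 (SD, n = 4) in amiNaa10, 6.41 ± 1.01 under the amiNaa15 label, 3.88 ± 0.59 in the control and 3.56 ± 0.78 in drought, and in this order neither the first pair of neighbours nor the last differed beyond its spread. The change from the control was 2.96 ± 0.49 (log2, standard error), or 7.80-fold, in amiNaa10 and 2.52 ± 0.49, or 5.75-fold, under the amiNaa15 label. These were the 2nd largest rise of all genes in amiNaa10 and the 9th largest under the amiNaa15 label.

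**Figure D1:**
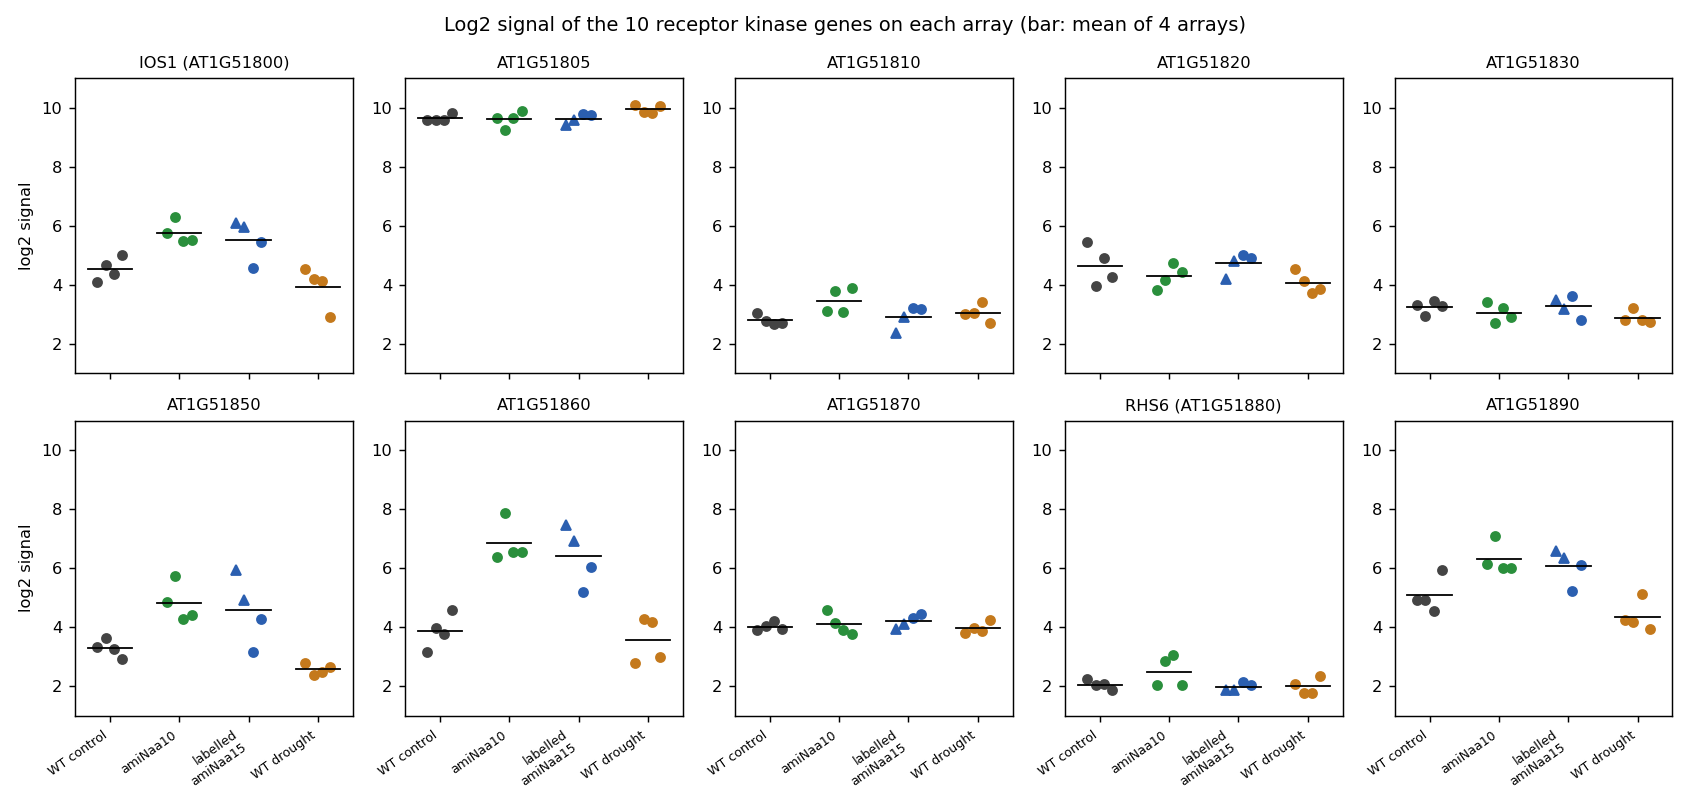
Log2 signal (vertical axis) of each of the 10 genes on the 16 arrays, grouped as wild type control, amiNaa10, arrays labelled amiNaa15 and wild type drought; points are arrays, bars are means of 4, and triangles are the labelled amiNaa15 replicates 1 and 2. AT1G51860 lies at 3.16 to 4.59 in the control and at 6.38 to 7.88 in amiNaa10, while AT1G51805 lies between 9.24 and 10.10 on all arrays.

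*IOS1*, at the far end of the stretch, was also higher in amiNaa10. It measured 4.10, 4.65, 4.35 and 5.02 in the control and 5.76, 6.31, 5.48 and 5.51 in amiNaa10. The signals were 6.11, 5.97, 4.56 and 5.44 under the amiNaa15 label and 4.53, 4.20, 4.12 and 2.91 in drought. The amiNaa10 arrays were clear of the control, the labelled amiNaa15 replicate 3 fell within it, and drought replicate 4 was the lowest array of all. The change from the control was 1.23 ± 0.36 (2.35-fold) in amiNaa10 and 0.99 ± 0.36 under the amiNaa15 label.

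AT1G51850, the neighbour of AT1G51860, had low signals in the control. They were 3.33, 3.62, 3.27 and 2.92 there and 4.86, 5.74, 4.28 and 4.41 in amiNaa10. On the arrays labelled amiNaa15 they were 5.96, 4.92, 3.15 and 4.26, and in drought 2.79, 2.37, 2.47 and 2.64. The widest range within a group was under the amiNaa15 label, where replicate 3 lay within the control, and all 4 drought arrays lay below all 4 control arrays. The change from the control was 1.53 ± 0.44 (2.90-fold) in amiNaa10 and 1.29 ± 0.44 under the amiNaa15 label.

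AT1G51890, at the other end of the stretch, measured 4.91, 4.92, 4.55 and 5.94 in the control and 6.15, 7.10, 6.01 and 6.00 in amiNaa10. It was 6.57, 6.36, 5.24 and 6.12 under the amiNaa15 label and 4.24, 4.17, 5.11 and 3.93 in drought. The 4 amiNaa10 arrays lay above control replicate 4, the highest control array, by a margin that was small beside the range of either group. The change was 1.24 ± 0.35 (2.35-fold) in amiNaa10 and 0.99 ± 0.35 under the amiNaa15 label.

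AT1G51810 was the fifth gene whose amiNaa10 arrays all lay above the control, at 3.09, 3.77, 3.08 and 3.91 against 3.03, 2.77, 2.68 and 2.70. It was 2.37, 2.90, 3.19 and 3.17 under the amiNaa15 label and 3.02, 3.03, 3.42 and 2.71 in drought, so both overlapped the control. Its change in amiNaa10 was 0.67 ± 0.22 (1.59-fold). These signals were in the lowest 25% of all genes.

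The other 5 genes overlapped the control in both mutants. AT1G51805, the brightest row of the group, was 9.58 to 9.84 in the control, 9.24 to 9.91 in amiNaa10, 9.40 to 9.80 under the amiNaa15 label and 9.84 to 10.10 in drought, and its changes in the mutants were -0.03 ± 0.14 and -0.01 ± 0.14. AT1G51870, next to AT1G51860 on its other side, was 3.90 to 4.20 in the control and 3.76 to 4.59 in amiNaa10, with changes of 0.09 ± 0.17 and 0.18 ± 0.17. Both neighbours of AT1G51860 were thus measured, and the changes on the 2 sides of it were unlike.

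AT1G51820 was the only gene with a change below -0.2 in amiNaa10, at -0.35 ± 0.30, and was 0.08 ± 0.30 under the amiNaa15 label. Its control arrays spread from 3.96 to 5.45. AT1G51830 changed by -0.18 ± 0.19 and 0.03 ± 0.19, with control signals of 2.92 to 3.46. *RHS6* measured 2.25, 2.03, 2.06 and 1.89 in the control and 2.03, 2.84, 3.06 and 2.04 in amiNaa10, so its change of 0.44 ± 0.21 rested on 2 arrays, replicates 2 and 3, close to a signal of 3.

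Calls needed both an adjusted p under 0.05 and a difference over 1.5-fold. By this threshold 4 of the 10 genes passed in amiNaa10, all higher (*IOS1*, AT1G51850, AT1G51860 and AT1G51890), where 2.45% of all genes were called higher and 2.92% lower. Under the amiNaa15 label only AT1G51860 passed, where 2.09% of all genes were called higher and 2.58% lower. All 4 arrays lay above the control in 5 of the 10 genes in amiNaa10 (8.36% of all genes) and in 1 under the amiNaa15 label (7.96%). The median change of the 10 was 0.55 in amiNaa10 and 0.15 under the amiNaa15 label, beside 0.02 and 0.01 over all genes. Since the group was chosen around a gene picked for its rise, nothing is read from these counts.

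The count in amiNaa10 moved with single arrays. It fell from 4 to 1 when any of control replicates 1, 2 and 3, amiNaa10 replicates 1, 2 and 4, labelled amiNaa15 replicates 2 and 4 or drought replicate 2 was left out (then only AT1G51860, the gene the group was chosen around), and to 2 without drought replicate 1. It was 3 to 5 without any other array. *IOS1* and AT1G51850 were in it under 5 of the 16 and AT1G51890 under 6. Calls over all genes moved too, from 1494 with all arrays to 827 without control replicate 1 and 753 without control replicate 3. They were 775 without amiNaa10 replicate 1, 556 without amiNaa10 replicate 2 and 1300 to 1644 without any other array. Under the amiNaa15 label the count of tandem genes rose to 2 without control replicate 4, and to 4 without the labelled amiNaa15 replicate 3. Calls over all genes were 1291 and 1944 there, against 1299 with all arrays.

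**Figure D2:**
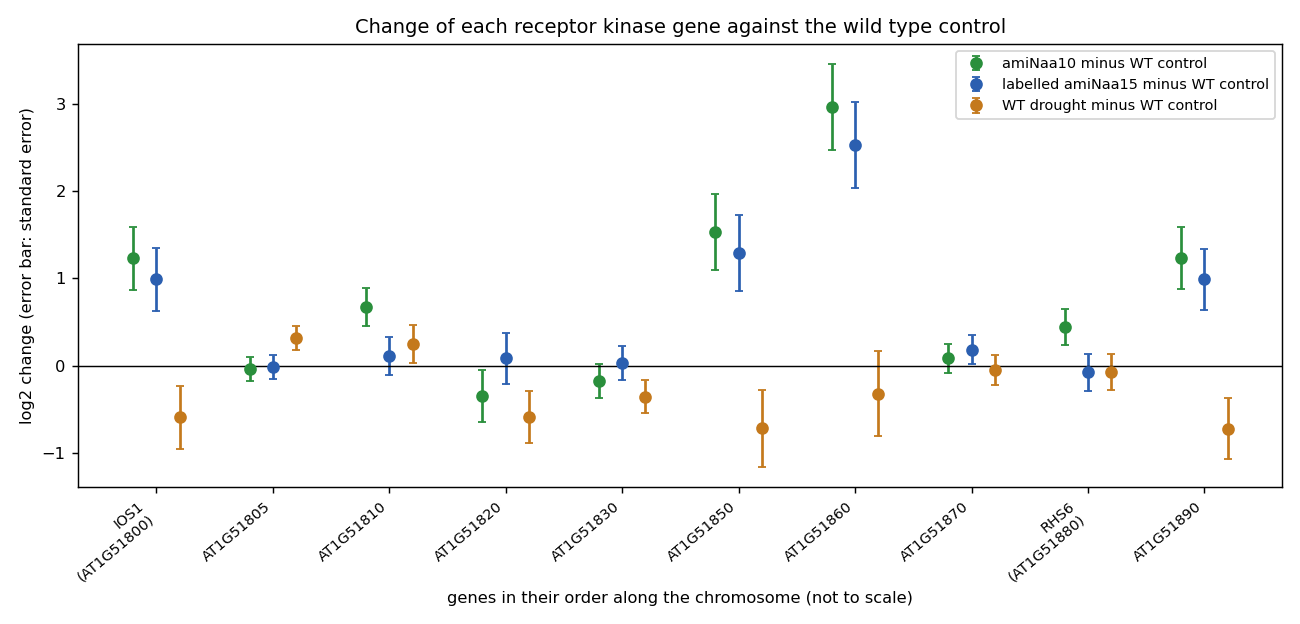
Change in log2 signal from the wild type control (vertical axis; points are differences of means of 4 arrays, bars are standard errors) for the 10 genes in their order along the chromosome, not to scale, in amiNaa10, under the amiNaa15 label and in drought. AT1G51860 stands at 2.96 and 2.52 in the mutants, *IOS1*, AT1G51850 and AT1G51890 at 0.99 to 1.53, and 8 of the 10 genes lie below 0 in drought.

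The arrays labelled amiNaa15 fell into their pairs in 9 of the 10 genes. Replicates 1 and 2 were both above replicates 3 and 4 in 4 genes, *IOS1*, AT1G51850, AT1G51860 and AT1G51890, as they were in 22.8% of all genes. They were both below in 5 genes, AT1G51805, AT1G51810, AT1G51820, AT1G51870 and *RHS6*, as in 22.1% of all genes. The mean of replicates 1 and 2 exceeded that of 3 and 4 by 1.73 for AT1G51850, 1.59 for AT1G51860, 1.04 for *IOS1* and 0.79 for AT1G51890, and was lower by 0.23 to 0.55 in the other 5. The pairs were told apart by *NAA10* and *NAA15*, not by these genes, and with 2 arrays each the differences were not tested.

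Without replicates 1 and 2, the change of AT1G51860 from the control under the amiNaa15 label was 1.73 ± 0.51 and that of AT1G51850 was 0.42 ± 0.36, and none of the 10 genes passed the threshold. In that fit 108 genes of the table were called, against 1299 with all arrays. Without replicates 3 and 4 the changes were 3.32 ± 0.50 and 2.16 ± 0.36, *IOS1*, AT1G51850, AT1G51860 and AT1G51890 passed, and 2049 genes were called.

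The drought comparison asked whether the same genes responded in wild type leaves without water. It was not used to choose them, but it shares the 4 control arrays with the mutant comparisons. None of the 10 genes was called (limma, adjusted p = 0.108 to 0.882), where 6.27% of all genes were called higher and 7.15% lower, and 1 of the 10 had an unadjusted p under 0.05. Of the 10 changes 8 were below 0, and their median was -0.34, beside 0.03 over all genes.

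AT1G51860 changed by -0.32 in drought (adjusted p = 0.706), with a 95% interval of -1.36 to 0.72. AT1G51850 and AT1G51890 both changed by -0.72, with intervals of -1.64 to 0.21 and -1.46 to 0.03 (adjusted p = 0.265 and 0.158). AT1G51850 was the one gene with all drought arrays below the control, as were 10.3% of all genes, and it was called in a fit of these 2 groups alone at the same change of -0.72. All its drought signals, at 2.37 to 2.79, were below the line of 3 drawn for signals near background. *IOS1* changed by -0.59 (interval -1.36 to 0.17, adjusted p = 0.266).

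AT1G51805 went the other way. Its drought signals were 10.10, 9.86, 9.84 and 10.06 against 9.59, 9.59, 9.58 and 9.84 in the control. The change was 0.31, with an interval of 0.02 to 0.60 and an adjusted p of 0.108, and it was the gene with an unadjusted p under 0.05. The remaining changes were -0.58 for AT1G51820, -0.35 for AT1G51830, 0.25 for AT1G51810, -0.07 for *RHS6* and -0.05 for AT1G51870, none past the test. In the same leaves 3 of 5 mesophyll markers fell, and the mean of the 5 was 9.74 to 10.8 per array against 11.7 to 11.9 in the control. The part of this in the receptor kinase values was not tested.

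Between the mutants, amiNaa10 minus the arrays labelled amiNaa15, none of the 10 genes was called (limma, adjusted p = 0.667 to 0.988), and 0% of all genes were. The targeted genes were not called either, with *NAA10* at -0.90 and *NAA15* at 0.85. Replicates 1 and 2 under the amiNaa15 label had low *NAA10*, as amiNaa10 had, so the lack of calls says little about the 10 genes. At an unadjusted p under 0.05 and more than 1.5-fold, 360 genes of the table passed. Among the 10 receptor kinases the unadjusted p alone was under 0.05 for AT1G51810, at 0.55 (interval 0.09 to 1.02), and *RHS6*, at 0.52 (interval 0.08 to 0.95). For AT1G51860 the difference was 0.44, with an interval of -0.60 to 1.48, which does not show equal levels. It was 1.23 ± 0.51 without the labelled amiNaa15 replicates 1 and 2 and -0.36 ± 0.50 without replicates 3 and 4, and no member was called in either case.

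The 10 genes did not vary together as a group. With group means removed, the correlation between 2 of them over the 16 arrays had a median of -0.16 over the 45 pairs, from -0.71 to 0.80. Within *IOS1*, AT1G51850, AT1G51860 and AT1G51890, singled out after their values were seen, the 6 correlations were 0.54 to 0.80. Between these 4 and the other 6 they were -0.71 to 0.07, and among the other 6 they were -0.43 to 0.42. AT1G51860 correlated with AT1G51890 at r = 0.80 (Spearman rho 0.60), with *IOS1* at 0.73 (0.62), with AT1G51850 at 0.62 (0.33) and with AT1G51805 at -0.65 (-0.59). With the means of the labelled amiNaa15 pairs removed as well, the 6 correlations were 0.35 to 0.75, that of AT1G51850 with AT1G51860 being 0.35. These are descriptions over 16 arrays that share processing and 4 group means, and probes shared between related genes could move rows together.

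**Figure D3:**
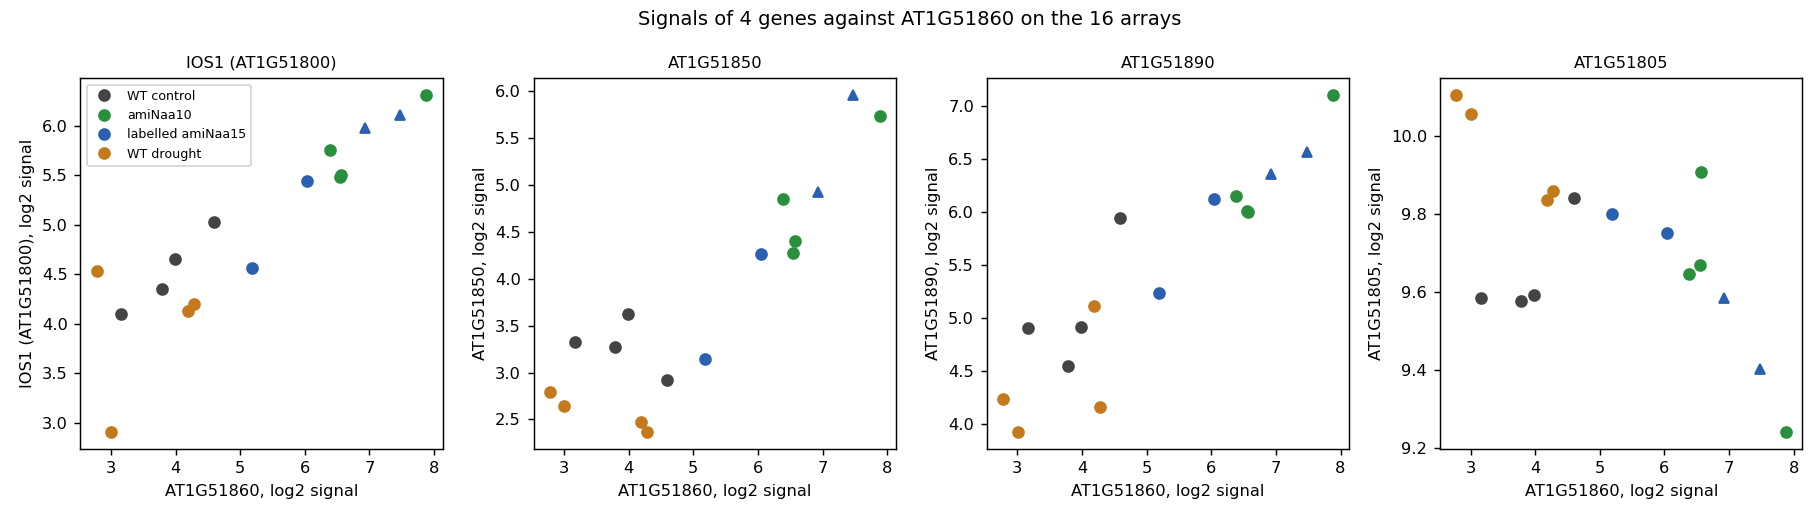
Log2 signals of *IOS1*, AT1G51850, AT1G51890 and AT1G51805 (vertical axes) against AT1G51860 (horizontal axes) on the 16 arrays, coloured by group; triangles are the labelled amiNaa15 replicates 1 and 2. As deposited, before group means were removed, *IOS1*, AT1G51850 and AT1G51890 follow AT1G51860 (r = 0.91, 0.89 and 0.92), and AT1G51805 does not (r = -0.62).

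The arrays at the ends of the groups were often the same in these 4 genes. AmiNaa10 replicate 2 was the highest array of its group in all 4, and the labelled amiNaa15 replicate 1 was the highest and replicate 3 the lowest of theirs in all 4. Control replicate 4 was the highest control array for *IOS1*, AT1G51860 and AT1G51890, but the lowest for AT1G51850. *PR1*, a salicylate-induced defence gene, was 5.55, 6.99, 5.25 and 7.53 in the control, 8.03, 9.74, 8.20 and 8.55 in amiNaa10, 9.09, 8.44, 5.36 and 7.19 under the amiNaa15 label, and 2.90, 3.93, 4.01 and 2.85 in drought. *PR1* too was highest on amiNaa10 replicate 2 and on control replicate 4, and within the amiNaa15 label highest on replicate 1 and lowest on replicate 3. The other salicylate markers of the list below shared this order only in part. In amiNaa10 *NPR1* was also highest on replicate 2, but *PR5* was highest on replicate 3 and *PR2*, *ICS1*, *EDS1* and *PAD4* on replicate 1. Under the amiNaa15 label *PR2*, *ICS1* and *PAD4* were highest on replicate 1, *PR5* and *NPR1* on replicate 2 and *EDS1* on replicate 4. All but *PR2* were highest on control replicate 4 and lowest on the labelled amiNaa15 replicate 3. The part of these orders in the receptor kinase values was not tested.

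Among the 14846 genes with a mean signal of at least 5, outside the 10, the 5 whose signals over the 16 arrays were most like those of AT1G51860 were AT5G09290 (Pearson r = 0.98), *RLP46* (0.97), *SPP* (0.97), *LUP5* (0.96) and AT1G23840 (0.96). *RLP46* encodes a receptor-like protein, which has leucine-rich repeats outside the cell and no kinase, *SPP* a signal peptide peptidase, and *LUP5* a member of the triterpene synthase family. Their changes ran from 0.50 (*SPP*) to 3.56 (*LUP5*) in amiNaa10 and from 0.44 to 3.01, in the same 2 genes, under the amiNaa15 label. With group means removed the correlations were 0.91, 0.89, 0.86, 0.83 and 0.86. Of the tandem genes the nearest were AT1G51890 (rank 59 of 27824 genes by r), *IOS1* (rank 118) and AT1G51850 (rank 203), while AT1G51870, its direct neighbour, ranked 9520. Group means were kept for these ranks and for the choice of the 5 genes. A shared rise in the mutants, by which AT1G51860 was picked, therefore enters both, and they are descriptions that test nothing.

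Just outside the stretch lies AT1G51790, of the same subfamily, which precedes *IOS1*. It measured 4.39, 5.68, 5.01 and 5.92 in the control and 6.45, 6.88, 6.05 and 6.15 in amiNaa10, with no overlap. The change of 1.13 ± 0.39 missed the threshold (adjusted p = 0.0872), as did 0.71 ± 0.39 under the amiNaa15 label and -0.93 ± 0.39 in drought (adjusted p = 0.288 and 0.0999). Without drought replicate 4 it passed in amiNaa10, at an adjusted p of 0.0442. On the other side, beyond AT1G51900, lies AT1G51910, also of the subfamily, with a mean signal of 1.54.

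Of 36 other LRR-I receptor kinase genes, these 2 and AT1G51840 inside the stretch (mean signal 2.59) included, none was called in amiNaa10. Under the amiNaa15 label 1 was called higher and 1 lower, and in drought 1 was called lower. Over all genes 2.45% were called higher and 2.92% lower in amiNaa10, and 2.09% and 2.58% under the amiNaa15 label. In drought these shares were 6.27% and 7.15%, and all of them hold beside the lists that follow as well. Nothing is read from the LRR-I counts. The median changes of the 36 genes were 0.04, 0.04 and -0.06. The higher one was *FRK1*, a kinase gene used as a marker of the response to bacterial flagellin, at 1.26 ± 0.35 (adjusted p = 0.0370). *FRK1* was 3.42, 3.85, 3.64 and 4.18 in the control and 5.13, 5.77, 4.02 and 5.22 under the amiNaa15 label, where replicate 3 again fell within the control. Its call was lost without control replicate 1, 2 or 3 or labelled amiNaa15 replicate 1, 2 or 4 (adjusted p up to 0.134), and in amiNaa10 it stood at 1.09 ± 0.35 (adjusted p = 0.0646).

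The LRR-I genes that fell were AT5G59660, by 0.66 ± 0.19 under the amiNaa15 label (adjusted p = 0.0480), a call made under only 2 of the 16 single-array omissions, and AT5G59670, 2.83-fold in drought (adjusted p = 0.00523). The AT5G59670 signals were 7.99, 8.88, 7.60 and 9.42 in the control and 7.08, 7.28, 6.06 and 7.49 in drought, with no overlap. That call held under all 16 omissions.

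Among 16 pattern receptors and co-receptors, which sense microbial or damage-derived molecules, 2 were called higher and 1 lower in amiNaa10. *FLS2*, the flagellin receptor, rose by 0.70 ± 0.18 (adjusted p = 0.0314) and *LYK4*, a chitin receptor component, by 0.70 ± 0.21 (adjusted p = 0.0479), and *PEPR1*, a receptor of the plant's own Pep peptides, fell by 0.77 ± 0.18 (adjusted p = 0.0207). The same 3 genes were called the same way under the amiNaa15 label, at 1.03, 0.80 and -0.63. In drought *FLS2* rose by 1.10 ± 0.18 (adjusted p = 0.000534) and *LYK4* fell by 0.63 ± 0.21 (adjusted p = 0.0339), as the only calls. With single arrays left out the 3 *FLS2* calls held under 10 (amiNaa10), 16 (amiNaa15 label) and 16 (drought) of 16 omissions. Those of *LYK4* held under 5, 11 and 12, and those of *PEPR1* in the mutants under 14 and 5.

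Of 11 genes that act downstream of these receptors, *RBOHD*, the oxidase of the reactive oxygen burst, fell in both mutants, by 1.01 ± 0.20 in amiNaa10 (adjusted p = 0.0101) and by 0.88 ± 0.20 under the amiNaa15 label (adjusted p = 0.0145). *WRKY22*, a transcription factor gene, rose by 0.67 ± 0.18 and by 0.63 ± 0.18 (adjusted p = 0.0296 and 0.0393). *BIK1*, a cytoplasmic kinase that receptors phosphorylate, was called only under the amiNaa15 label, at 0.73 ± 0.16 (adjusted p = 0.0134). None of the 11 was called in drought. The *RBOHD* call in amiNaa10 held under all 16 omissions, that under the amiNaa15 label was lost without its replicate 1 (adjusted p = 0.0517), and the *BIK1* call was lost without replicate 2 (adjusted p = 0.0536). The *WRKY22* calls held under 10 of 16 each.

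Of 9 output genes that pattern perception switches on, 2 were called higher in amiNaa10, 2 under the amiNaa15 label and none lower. In amiNaa10 these were *PHI-1* at 1.62 ± 0.27 (adjusted p = 0.00537) and *CRK11*, a cysteine-rich receptor kinase gene, at 0.79 ± 0.19 (adjusted p = 0.0231). Under the amiNaa15 label they were *FRK1* and *CRK11*, the latter at 0.92 ± 0.19 (adjusted p = 0.00963). In drought only *CYP81F2*, of indole glucosinolate synthesis, was called, and it fell by 1.72 ± 0.26 (adjusted p = 0.000246). The *PHI-1* call and the *CRK11* call under the amiNaa15 label held under all 16 omissions, whereas *CRK11* in amiNaa10 was lost without control replicate 3 or amiNaa10 replicate 1 or 2 (adjusted p up to 0.0820).

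Among 7 salicylate markers, 5 fell in drought, with *PR1* at -2.91 ± 0.69, *PR5* at -2.42 ± 0.51, *PAD4* at -1.08 ± 0.27 and *EDS1* at -0.95 ± 0.22 (adjusted p = 0.00574, 0.00277, 0.00846 and 0.00551), each held under all 16 omissions. In amiNaa10 *EDS1* was the only call, at 0.79 ± 0.22 (adjusted p = 0.0419, held under 7 of 16), and *PR1* stood at 2.30 ± 0.69 (adjusted p = 0.0509). None was called under the amiNaa15 label. The mean of the 7 genes was 5.57 to 6.85 per array in the control, 6.90 to 7.25 in amiNaa10, 5.86 to 7.05 under the amiNaa15 label and 4.64 to 5.18 in drought. Of the 4 guard cell markers none was called in the mutants and *TGG1* was called lower in drought. *SLAC1* went the other way in drought, at 0.72, with all 4 drought arrays above the control, but was not called. *SLAC1* stood at -0.85 in amiNaa10 and at -0.74 under the amiNaa15 label, and without the labelled amiNaa15 replicate 3 it was called lower in both (adjusted p = 0.0466 and 0.0272). None of the 5 root and root hair markers was called in any comparison.

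Without the labelled amiNaa15 replicates 1 and 2, none of the calls given above for the LRR-I, pattern receptor, downstream and output genes under that label was made. The changes kept their direction, at 0.85 for *FRK1*, 0.79 for *FLS2*, -0.76 for *RBOHD* and 0.64 for *CRK11*. Without replicates 3 and 4, the calls of AT5G59660 (-0.52), *PEPR1* (-0.60) and *WRKY22* (0.60) under the amiNaa15 label were lost, and *PR1* (2.43) and *SLAC1* (-1.35) were called.

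**Figure D4:**
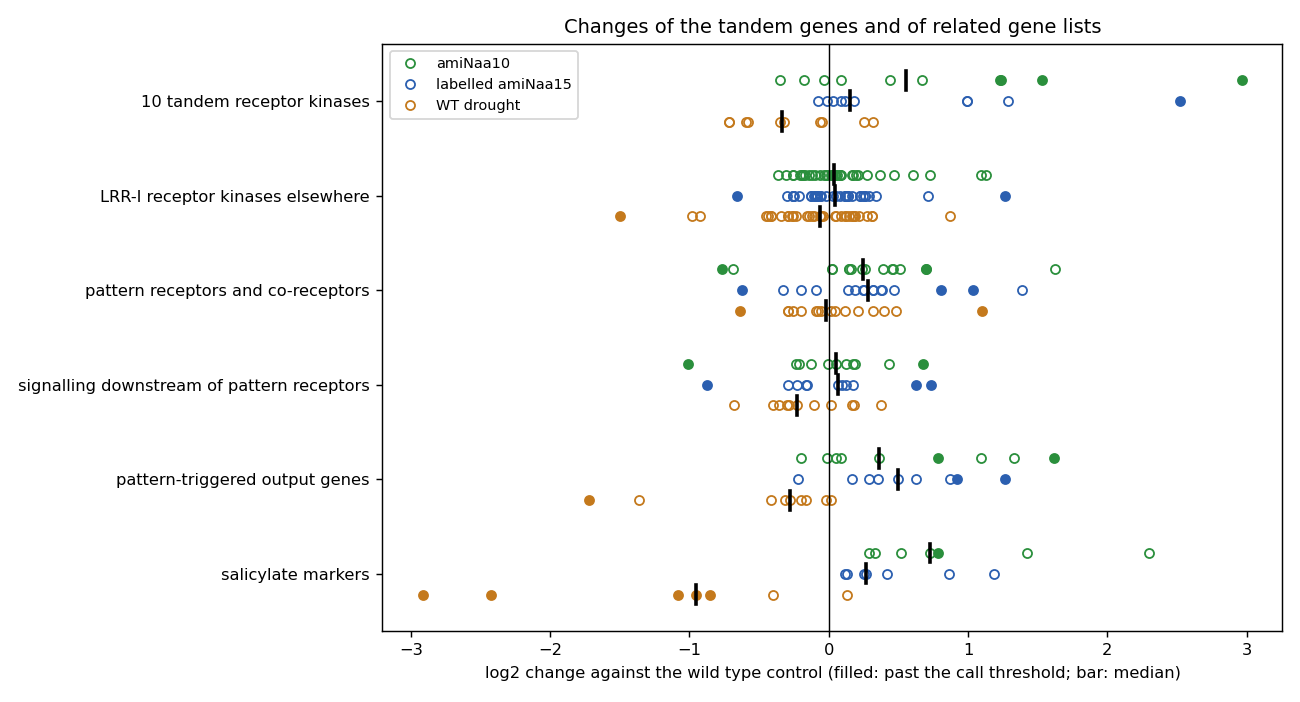
Change in log2 signal from the wild type control (horizontal axis) of each gene of the tandem group and of 5 related lists, in amiNaa10, under the amiNaa15 label and in drought; circles are genes, filled where called, and bars are medians. The tandem genes have medians of 0.55, 0.15 and -0.34, the 36 other LRR-I genes of 0.04, 0.04 and -0.06, and the salicylate markers reach -2.91 in drought.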

How the data were processed

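Leaf RNA was hybridised to Affymetrix AraGene arrays, 4 in each of 4 groups taken from the labels. The values deposited by the authors are log2 signals. They had been background-corrected with RMA, quantile-normalized and summed up per gene with version 16 of a custom probe annotation built on TAIR gene definitions. The TAIR release behind it is not given in the sources used here. No coordinates are therefore printed, and symbols and gene order come from the RefSeq table of TAIR10.1, which held 27241 of the loci. The scanner files were not used here. Of 59 list genes given a symbol, 55 had it paired with the locus in that table.

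Group means were estimated in limma 3.58.1 (R 4.3.3) from all 16 arrays at once, leaving 12 residual degrees of freedom, with variances moderated across genes. Benjamini-Hochberg adjustment ran over all 27827 genes, separately per comparison. An analysis of variance over arrays, which the methods name, was replaced by this fit. A call needed an adjusted p under 0.05 with a difference over 1.5-fold, and 2 genes constant in every group were not called. The script was tested on simulated data. Figures were drawn with matplotlib 3.10.9.

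The members and lists were chosen with earlier results of these data known. Named were all 10 tandem genes, *NAA10* and *NAA15*, up to 4 called genes per list and comparison with the largest change (or the one with the largest change where none was called), and the 5 genes most correlated with AT1G51860. Values of genes outside this rule (*PR1* and *FRK1* in amiNaa10, AT1G51790 outside amiNaa10, AT1G51910) were chosen after they were seen. Alternatives were other thresholds, normalizations, fits, array weights, a replicate block, each array left out in turn and, chosen after seeing the data, either pair of the arrays labelled amiNaa15 left out. The labels call the arrays biological replicates but do not say how plants were sampled, and p-values measure the spread between these arrays. The number of arrays limits the precision.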

Additional observations from a re-analysis of the deposited data

Results flagged for a closer look

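In groups of 4 arrays, 1 array stood apart from the other 3 (by Dixon's criterion, the gap to the nearest array over the group's range) in 4 of the 40 groups of the tandem genes and in 11 of 172 groups in all. Chance alone flags about 1 group in 20.

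AT1G51860 was 7.88 on amiNaa10 replicate 2, against 6.38 to 6.57 on the other 3 amiNaa10 arrays. AT1G51890 stood apart on the same array, at 7.10 against 6.00 to 6.15. AT1G51805 was 9.84 on control replicate 4, against 9.58 to 9.59 on the others. AT1G51830 was 3.22 on drought replicate 2, against 2.73 to 2.80.

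Among the list genes, *SLAC1* (AT1G12480), a guard cell anion channel gene, was 5.87 on amiNaa10 replicate 2, against 6.67 to 6.70. *PHI-1* (AT1G35140) was 3.62 on amiNaa10 replicate 3, against 4.02 to 4.09, and AT1G16440 was 3.64 on amiNaa10 replicate 4, against 3.45 to 3.46. *PR5* (AT1G75040) was 7.25 on the labelled amiNaa15 replicate 3, against 8.72 to 8.88. *CYP81F2* (AT5G57220) was 6.18 on control replicate 3, against 7.28 to 7.37. On drought replicate 3, *FLS2* (AT5G46330) was 4.82 against 4.20 to 4.28, and AT2G34430, a light-harvesting protein gene, was 6.02 against 7.97 to 8.29.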

How the results depend on the processing

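Over 29 alternative settings, 1148 values of single tandem genes were computed. None of the called values changed sign, and 1139 stayed within the spread of the arrays or on the same side of the threshold. A value within that spread could still lose its call, as the counts below show. Values not called could change sign, as that of AT1G51860 between the mutants did (-0.36 to 1.23). In amiNaa10 the count of 4 tandem genes became 1 without moderation of the variance (AT1G51860) and 0 when limma tested for more than 1.5-fold, and 1 to 5 with single arrays left out. Calls over all genes were then 944, 5 and 556 to 1644, against 1494 in the fit used above. Under the amiNaa15 label the count of 1 became 4 at an unadjusted p below 0.05 and 4 with array weights (in both cases *IOS1*, AT1G51850, AT1G51860 and AT1G51890). It became 0 when limma tested for more than 1.5-fold, and 1 to 4 with single arrays left out. Calls over all genes were then 2177, 1829, 23 and 663 to 1944, against 1299. In settings added after seeing the data the tandem count under that label was 0 without the labelled amiNaa15 replicates 1 and 2, a fit with fewer arrays, and 4 without replicates 3 and 4. In drought the count of 0 became 1 (AT1G51850, with all drought signals below 3) when only the 2 groups were fitted, and 0 with any single array left out. Between the mutants it was 0 in every setting run. The cause of these moves was not tested. The median correlation between tandem genes of -0.16 was 0.12 for the deposited values, -0.10 by Spearman's rho and -0.12 with the means of the labelled amiNaa15 pairs removed (both added after seeing the data) and -0.20 to -0.0945 with single arrays left out.

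When replicate numbers entered as a block, counts were 3 in amiNaa10 (without AT1G51890), 2 under the amiNaa15 label (AT1G51850 and AT1G51860), 0 in drought and 0 between the mutants. Arrays of the same number correlated at -0.06 to 0.17 (amiNaa10 and control), -0.13 to 0.26 (amiNaa15 label and control), -0.20 to 0.13 (drought and control) and 0.01 to 0.32 (amiNaa10 and amiNaa15 label) in their deviations from the group means. No comparison had every value over 0.1, and 1 of 4 was best matched by its own number in each comparison with the control. The labels give only the number, and with 4 arrays per group these values do not settle whether samples of the same number share more. Of the 5 genes most like AT1G51860 by Pearson's r, 4 were also among the first 5 by Spearman's rho. The planned count of a promoter motif was not run, since no promoter sequence was used here. Mean signals were below 3 in 5969 of the genes (21.45%), where small changes are hard to measure.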
